A study of Homo sapiens with 56 samples.

Results

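CLF added to bortezomib was examined by setting the libraries labelled BTZ_CLF against those labelled BTZ in 3 mantle cell lymphoma lines, JEKO-1, MINO-P and MINO-VR. These were 9 of the 56 libraries of the series, 4 of BTZ_CLF and 5 of BTZ. MINO-P and MINO-VR each had 1 library of BTZ and 1 of BTZ_CLF, and JEKO-1 had 3 of BTZ and 2 of BTZ_CLF. The 4th line of the series, Z138, had 0 libraries of BTZ_CLF and was left out. BTZ is bortezomib, an inhibitor of the proteasome, and the labels do not spell out CLF. By the labels, both groups therefore share bortezomib and differ in CLF, with the same bortezomib exposure assumed. Untreated libraries (CON, 3 in these lines) and libraries of CLF without bortezomib (CLF, 4) are given beside them as the background. The labels give no dose, no time of treatment and no meaning for the letters P and VR, and each line is an established culture of a single origin, so separate libraries of a line are not separate patients. All libraries were poly-A RNA-seq of cultured cells, measured as CPM, read counts scaled to a fixed library total.

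The proteasome degrades ubiquitin-tagged proteins, and its inhibition lets misfolded proteins build up. Cells answer through HSF1, the transcription factor that binds heat shock elements in promoters of chaperone genes, and through factors such as NRF2 and ATF4. Bortezomib is used against mantle cell lymphoma, a B-cell lymphoma in which the cell-cycle driver cyclin D1 (CCND1) is typically overexpressed. Genes of mitosis are switched together through the cell cycle, in many cases through a promoter sequence called the cell cycle genes homology region (CHR), which is bound by the MuvB complexes, with B-MYB (MYBL2) and FOXM1 as activators.

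Mitosis genes had the largest list median in MINO-VR, and heat shock genes are the textbook response to proteasome inhibition, so 4 of their promoters are shown, from RefSeq on GRCh38.p14, each 250 bases before to 50 bases after the start site, on the plus strand and 5′ to 3′. In the first pair, PLK1 (the mitotic polo-like kinase, chr16:23678639-23678938) and CDC20 (the activator of the anaphase-promoting complex, chr1:43358731-43359030), capitals mark the CHR letters TTTGAA on either strand.
PLK1: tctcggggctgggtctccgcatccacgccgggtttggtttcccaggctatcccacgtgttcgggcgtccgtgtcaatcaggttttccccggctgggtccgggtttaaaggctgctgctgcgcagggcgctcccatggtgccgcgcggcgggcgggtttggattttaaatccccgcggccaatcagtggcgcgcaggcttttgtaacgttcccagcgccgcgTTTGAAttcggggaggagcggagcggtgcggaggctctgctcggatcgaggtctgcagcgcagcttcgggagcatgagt
CDC20: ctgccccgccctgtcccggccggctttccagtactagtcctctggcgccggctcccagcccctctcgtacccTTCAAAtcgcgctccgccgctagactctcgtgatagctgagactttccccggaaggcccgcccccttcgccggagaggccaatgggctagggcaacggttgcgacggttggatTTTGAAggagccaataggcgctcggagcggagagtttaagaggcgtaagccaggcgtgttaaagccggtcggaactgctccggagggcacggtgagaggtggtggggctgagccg
In the second pair, HSPA6 (a strictly inducible HSP70, chr1:161524290-161524589) and HSPA1B (the major inducible HSP70, chr6:31827488-31827787), capitals mark GAANNTTC, the core of a heat shock element, which reads the same on both strands.
HSPA6: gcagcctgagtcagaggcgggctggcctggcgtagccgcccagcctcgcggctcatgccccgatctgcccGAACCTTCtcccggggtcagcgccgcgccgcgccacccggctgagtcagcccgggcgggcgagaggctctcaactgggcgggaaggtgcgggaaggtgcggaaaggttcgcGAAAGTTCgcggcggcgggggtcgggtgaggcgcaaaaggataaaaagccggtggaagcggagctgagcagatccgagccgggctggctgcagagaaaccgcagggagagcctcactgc
HSPA1B: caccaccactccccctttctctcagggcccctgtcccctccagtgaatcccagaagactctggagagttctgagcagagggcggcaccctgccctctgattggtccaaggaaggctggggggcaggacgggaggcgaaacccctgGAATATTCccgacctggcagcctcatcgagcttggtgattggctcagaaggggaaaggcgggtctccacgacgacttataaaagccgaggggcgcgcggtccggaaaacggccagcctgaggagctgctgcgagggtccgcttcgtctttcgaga
The letters TTTGAA were found in 21 of 29 mitosis-list promoters (72.4%), against 15.2% of all 35116 promoters in the RefSeq table. GAANNTTC was found in 5 of 13 promoters of the HSP70 and HSP110 list (38.5%) and 7 of 20 of the HSP40, BAG and small heat shock list (35%), against 6.77% of all promoters. The 4 promoters shown all hold the marked letters. TTTGAA was not found in the promoter of KIF20A, nor GAANNTTC in those of BAG3 and DNAJB1, genes described below. These matches describe the letters only.

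The libraries differed in what they could show. Recovered depth was 5.52 to 20.0 M reads, but in JEKO-1 most of it was mitochondrial. Chromosome M held 67.6%, 67.5% and 9.92% of the JEKO-1 BTZ libraries and 80.5% and 65.5% of the BTZ_CLF libraries, against 1.91% of the untreated library. In MINO-P it held 5.73% with BTZ and 3.23% with BTZ_CLF, and in MINO-VR 4.40% and 5.91%. The mean difference over the 3 lines was 7.89 percentage points and did not pass an exact permutation test within lines (two-sided p = 0.55, 40 arrangements, smallest possible p 0.025). It was 1.49 points without JEKO-1 BTZ replicate 3 (exact permutation p = 0.75) and 11.1 points with the near-identically named JEKO-1 pairs averaged (exact permutation p = 0.583). Chromosome M was left out and the rest rescaled, which left 15.9 to 18.8 M reads in each MINO library and 1.37 to 2.33 M in the 4 JEKO-1 libraries with high shares. A count of 3 reads corresponded to 0.160 to 0.188 CPM in MINO and to 1.29 to 2.18 CPM in those 4 libraries. All 8 B-cell markers and the 3 mantle cell lymphoma markers (CCND1, SOX11, CD5) had a median of at least 1 CPM in both groups. Of 7 T-cell markers, CD3E and CD2 were at 0 in all 9 libraries, and the summed level of the list was 2.61 to 16.8 CPM with BTZ and 4.70 to 8.74 CPM with BTZ_CLF.

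JEKO-1 BTZ replicate 3 stood apart from its group. Its levels correlated with those of the other 4 JEKO-1 libraries at 0.656 to 0.668 across 13835 genes, whereas those 4 correlated with each other at 0.903 to 0.933. Of 7837 genes at 10 CPM or more in the other 4 libraries, 468 (5.97%) were listed at 0 in replicate 3. In chromosome M share, heat shock genes and mitosis median (below) it did not resemble the other JEKO-1 bortezomib libraries, although PLK1 was as low in it as in them. SNORD3A was at 868 CPM in it, against 1065 and 996 CPM in BTZ replicates 1 and 2 and 0.84 CPM untreated. MCM2 was at 40.3 CPM, against 48.9 and 38.7 CPM and 473.5 CPM untreated. PSMB9 was at 2.51 CPM, against 3.43 and 5.57 CPM and 107 CPM untreated. Whether the BTZ label of replicate 3 is wrong or the library is faulty was not tested and cannot be told apart here. The JEKO-1 values and fits over the 3 lines that include it rest on that label. Replicates 1 and 2 of each JEKO-1 group carry library names that differ only by a final letter, and nothing says that they were separate cultures. The 2 BTZ_CLF libraries differed from each other (chi-square per degree of freedom 8.22) by more than they did from BTZ replicates 1 and 2 (4.85 to 7.82). Results in JEKO-1 are therefore given with and without replicate 3, and p-values measure only the spread between these libraries, which may be technical.

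Across the 3 lines together, no gene passed the test. With cell line as a block, limma called 0 of 14532 genes at an adjusted p under 0.05, a background of 0%. The lowest adjusted p was 0.95, and 127 genes had a p under 0.05 before adjustment. Without JEKO-1 BTZ replicate 3, limma again called 0 genes, with 458 at an unadjusted p under 0.05. The response to CLF in JEKO-1 against that in MINO was called for 0 of 14532 genes (0%), with 157 at an unadjusted p under 0.05. The 3 lines are described separately below because their differences had little in common. Across genes at 10 CPM or more in both lines, the differences of MINO-P and MINO-VR correlated at 0.26 (8721 genes). Those of MINO-VR and JEKO-1 correlated at 0.23 with replicate 3 and at -0.25 without it. The MINO libraries of CON, CLF, BTZ and BTZ_CLF have library names beginning with HK, and the JEKO-1 libraries names beginning with MCL. Cell line and library series therefore cannot be told apart where JEKO-1 is set against MINO.

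**Figure D1:**
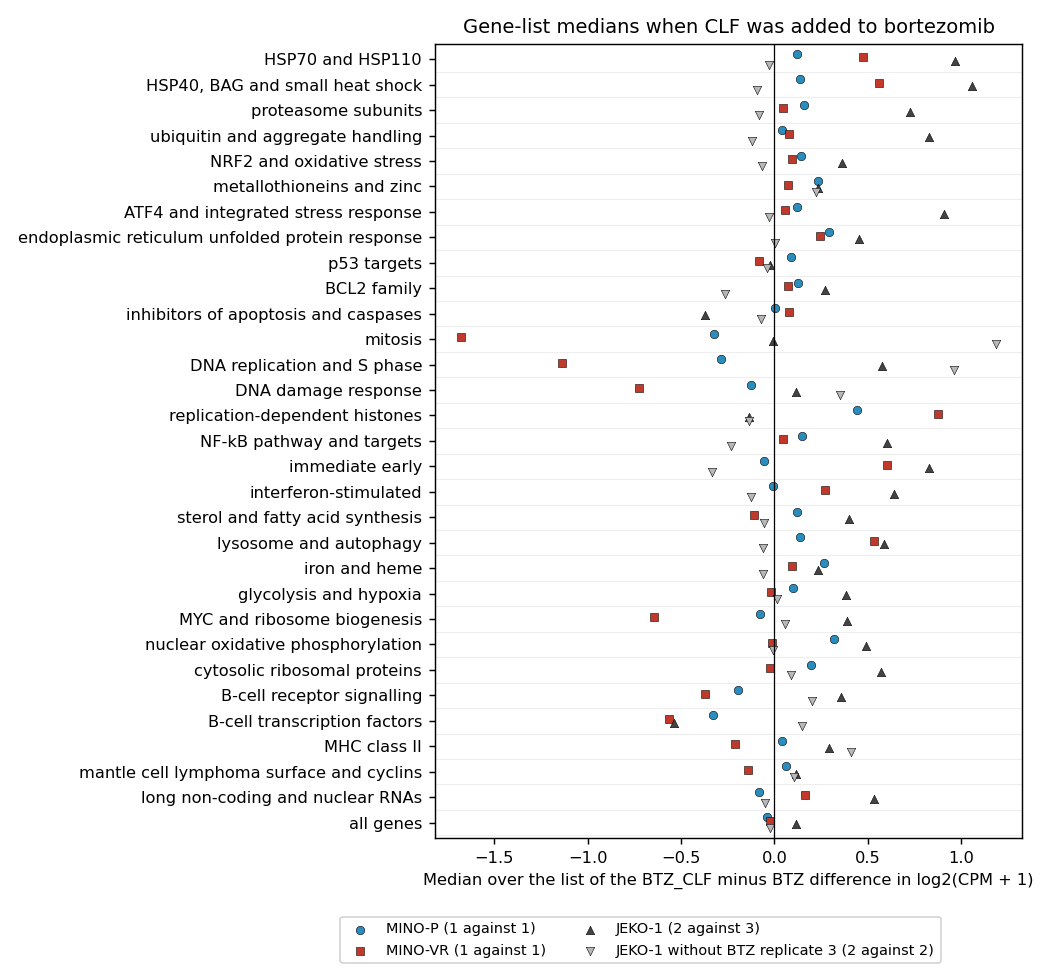
Median BTZ_CLF minus BTZ difference (x axis, log2(CPM + 1)) of 30 gene lists and of all genes (y axis), with 1 symbol per line, over members at 10 CPM or more in that line. The MINO-VR medians of mitosis (-1.68) and S phase (-1.14) lie farthest to the left, and the JEKO-1 heat shock medians near 1 move to about 0 when BTZ replicate 3 is left out.

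In MINO-VR, genes of cell division were lower with BTZ_CLF than with BTZ. Of 32 mitosis genes at 10 CPM or more, 31 were at least 1 log2 unit lower, and the list median was -1.68. Over all 9343 such genes, 428 were at least 1 unit lower (4.58%), 88 were at least 1 unit higher (0.942%), and the median was -0.03. MINO-VR had 1 library a group, so a difference here has no replicate check of its own.

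PLK1 was at 61.7 CPM with BTZ and 7.43 CPM with BTZ_CLF in MINO-VR, after 93.3 CPM untreated and 38.7 CPM with CLF alone. CDC20, the anaphase activator, was at 48.7 and 7.59 CPM with BTZ and BTZ_CLF. TOP2A, the topoisomerase that untangles replicated chromosomes, was at 187 and 29.6 CPM. Bortezomib alone left these 3 genes well above the level reached with the combination. KIF20A, a kinesin of cytokinesis, was at 12.4 and 1.22 CPM. MKI67, the proliferation antigen, was at 140 and 35 CPM, and MYBL2, the activator B-MYB, at 102 and 29.8 CPM. The difference was -2.90 for PLK1, -2.53 for CDC20, -2.62 for TOP2A and -2.59 for KIF20A in log2(CPM + 1), a scale that makes the change of low genes look smaller. CDC20, MKI67 and MYBL2 were picked once their values were known. PLK1, TOP2A and KIF20A were among the 5 lowest differences of MINO-VR, with FCGBP (-2.66), which encodes an IgG Fc binding protein, and FAM72C (-2.59), one of several near-identical copies whose reads could be split.

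**Figure D2:**
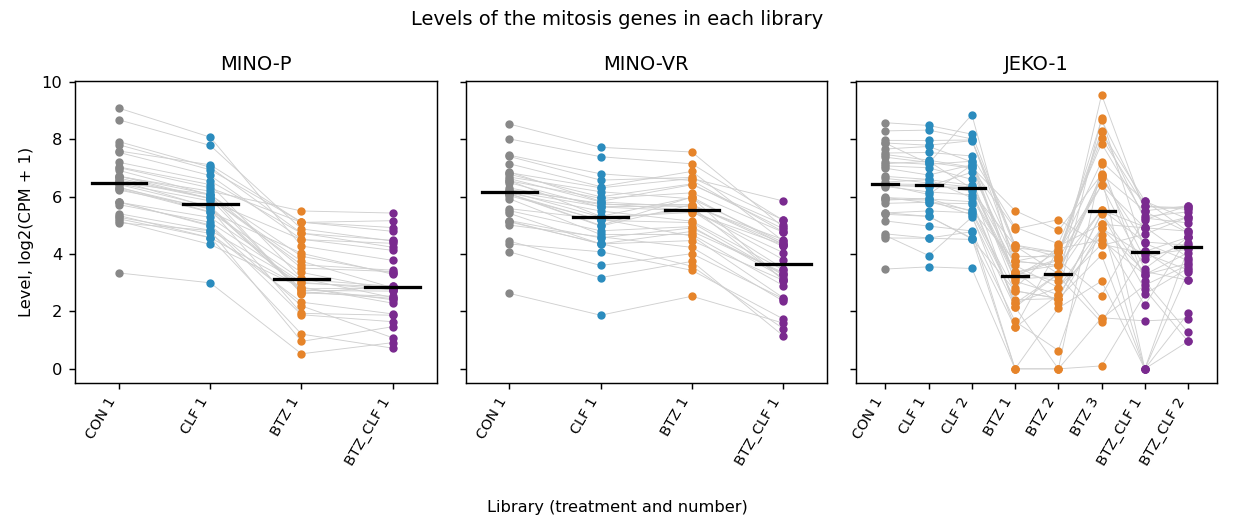
Levels (y axis, log2(CPM + 1)) of the 34 mitosis genes in each of the 16 libraries (x axis, treatment and number), 1 point a gene, a grey line joining each gene, and a black bar at the median. In MINO-VR the bar stands at 5.53 with BTZ and 3.65 with BTZ_CLF, in MINO-P at 3.13 and 2.84, and JEKO-1 BTZ replicate 3 stands at 5.48 above the other BTZ libraries at 3.23 and 3.31.

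The plot of mitosis levels shows where the lines started. In MINO-P bortezomib alone already brought the list median from 6.47 (CON) to 3.13, and BTZ_CLF was at 2.84. In MINO-VR bortezomib alone left it at 5.53, against 6.15 untreated and 5.30 with CLF alone, and BTZ_CLF was at 3.65. In MINO-VR the combination was thus well below either single agent, and in MINO-P it was close to bortezomib alone.

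DNA replication genes followed mitosis in MINO-VR. Of 37 S phase genes at 10 CPM or more, 24 were at least 1 unit lower and 0 were higher, with a median of -1.14. MCM2, a subunit of the replicative helicase, was at 90.6 CPM with BTZ and 30.3 CPM with BTZ_CLF. RRM2, which makes deoxynucleotides, was at 77.3 and 21.6 CPM. Of 29 DNA damage response genes, 11 were at least 1 unit lower, among them BRCA2, a homologous recombination gene, at 39.1 and 9.77 CPM. Of 30 MYC and ribosome biogenesis genes, 7 were at least 1 unit lower and 27 were below 0, with a median of -0.65. The transcription factor MYC itself was at 631 and 113 CPM, a difference of -2.47. It was at 576 CPM untreated and 436 CPM with CLF alone, so the combination was the lowest of the 4 MINO-VR libraries. CCND1 was at 1833 and 631 CPM, against 2104 CPM untreated. MCM2, RRM2, MYC, CCND1 and, below, HSPA1A, DNAJB1, LIF, BBOX1 and PCLO were also picked once their values were known.

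Genes of B-cell identity were also lower in MINO-VR, by less. Of 19 B-cell transcription factors, 16 were below 0 and 5 were at least 1 unit lower, with a median of -0.56. Over all 9343 genes, 4916 were below 0. IKZF3 (Aiolos) was at 62.4 CPM with BTZ and 25.4 CPM with BTZ_CLF. MEF2C was at 16.5 and 9.08 CPM. Of 24 B-cell receptor signalling genes, 17 were below 0 and 3 were at least 1 unit lower (median -0.37).

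Chaperone genes were higher with BTZ_CLF in MINO-VR. All 11 measured HSP70 and HSP110 genes were above 0 (median 0.47, 3 at least 1 unit higher), as were 18 of 19 HSP40, BAG and small heat shock genes (median 0.56, 6 at least 1 unit higher). Over all 9343 genes, 4427 were above 0. HSPA6 was at 0.39 CPM untreated, 19.4 CPM with CLF alone, 75.6 CPM with BTZ and 576 CPM with BTZ_CLF. HSPA1B was at 34.0, 277, 1776 and 6333 CPM in the same order. The CLF library of MINO-VR thus held more of both transcripts than its untreated library. MINO-P did not show this (HSPA6 0.07 and 0.21 CPM, about 3 reads or fewer, and HSPA1B 12.1 and 14.2 CPM). Each of these values is from 1 library. The names of the MINO-P CON and CLF libraries end in different codes, whereas those of MINO-VR end in the same code. HSPA1A and HSPA1B are near-identical copies between which reads can be split, and HSPA1A was at 92.3 CPM with BTZ and 317 CPM with BTZ_CLF. BAG3, an HSP70 co-chaperone, was at 154 and 488 CPM. DNAJB1, the HSP40 partner of HSP70, was at 462 and 1349 CPM.

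**Figure D3:**
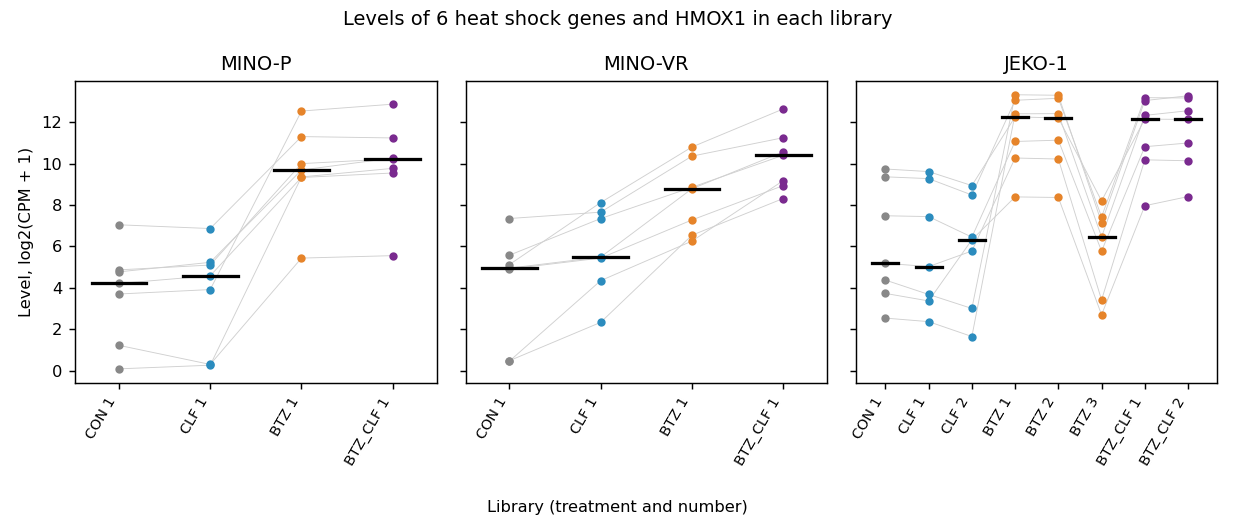
Levels (y axis, log2(CPM + 1)) of HSPA6, HSPA1A, HSPA1B, BAG3, DNAJB1, HSPH1 and HMOX1 in each of the 16 libraries (x axis), with a black bar at the median of the 7 genes. MINO-VR steps up from CON through CLF and BTZ to BTZ_CLF, MINO-P is high in both bortezomib libraries, and JEKO-1 BTZ replicate 3 is low where the other 4 bortezomib libraries are high.

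Among other stress lists in MINO-VR, the immediate early and the lysosome lists had medians as high as the chaperone lists. The endoplasmic reticulum unfolded protein response list had a median of 0.25, with 16 of 20 genes above 0 and 0 at least 1 unit higher. The NRF2, ATF4 and proteasome lists stayed near 0. Of 17 immediate early genes, 13 were above 0, 5 were at least 1 unit higher and 1 was lower, with a median of 0.60. JUN, a subunit of the factor AP-1, was at 136 CPM with BTZ and 379 CPM with BTZ_CLF. HMOX1, heme oxygenase and a target of NRF2, was at 440 CPM with BTZ and 1508 CPM with BTZ_CLF. Over 25 NRF2 and oxidative stress genes the median was 0.09 and 2 were at least 1 unit higher. Among 23 genes of the ATF4 list, 4 were at least 1 unit higher and 1 was lower (median 0.06). PPP1R15A (GADD34), which restores translation, was at 184 and 516 CPM, and the stress factor ATF3 at 160 and 490 CPM. The proteasome subunits differed little, with a median of 0.05 and 0 of 40 past 1 unit in either direction. Of 31 lysosome and autophagy genes, 29 were above 0, with a median of 0.53 and 1 at least 1 unit higher. CTSD, the protease cathepsin D, was at 907 and 1529 CPM. The largest differences upward were GZMB (3.61), SNORD3A (2.98), HSPA6 (2.91), 7SK (2.69) and GEM (2.65). SNORD3A and 7SK are small RNAs without poly-A tails, which poly-A enrichment is meant to leave out.

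A model of group means over all libraries, chosen after the data were seen, lends each lone library the spread of the other groups. By this limma fit 4 of 17203 genes passed in MINO-VR (0.0233%), and their SE is not replicate error in MINO-VR. GZMB, the cytotoxic protease granzyme B, was at 5.40 CPM with BTZ and 77.1 CPM with BTZ_CLF (difference 3.61 ± 0.36 SE, adjusted p = 0.000461). PCLO, which encodes the presynaptic protein piccolo, was at 0.296 and 6.95 CPM (2.62 ± 0.24, adjusted p = 0.000235). LIF, a cytokine, was at 0.178 and 3.72 CPM (2.0 ± 0.25, adjusted p = 0.00548), and BBOX1, an enzyme of carnitine synthesis, was at 10.3 and 0.956 CPM (-2.53 ± 0.37, adjusted p = 0.026). All 4 were low in the bortezomib libraries of the other lines, at 3.29 CPM or less, and GZMB was at 0 in all 5 of JEKO-1 and at 1.25 and 2.0 CPM in MINO-P. The spread lent to them came in part from such groups. All of it came from libraries with names beginning with MCL, whereas the MINO-VR libraries compared here have names beginning with HK. PLK1, which is expressed in every line, did not pass (difference -2.90 ± 1.10 SE, adjusted p = 1). With a pseudocount of 0.25 it called PCLO only. By the same fit, 0 of 17203 genes differed in their response between MINO-VR and MINO-P (0%), with 31 at an unadjusted p under 0.05.

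The MINO-VR difference resembled the response of MINO-P to bortezomib alone, a comparison that shares no library with it. Across 9343 genes the BTZ_CLF minus BTZ difference in MINO-VR correlated with BTZ minus CON in MINO-P at r = 0.68, with BTZ minus CON in Z138 at r = 0.62, and with BTZ minus CON in JEKO-1 at r = 0.35, or 0.60 without BTZ replicate 3. These values describe genes, which are not independent replicates. Of the 428 genes at least 1 unit lower in MINO-VR, 370 (86.4%) were at least 1 unit lower with bortezomib in MINO-P, against 15.4% of all 9343 genes. They made up 25.7% of the 1442 genes lower with bortezomib in MINO-P. Of the 88 genes at least 1 unit higher, 56 (63.6%) were at least 1 unit higher with bortezomib in MINO-P, against 10.8% of all. These were 5.57% of the 1005 genes higher there. The response of MINO-VR to bortezomib alone correlated with that of MINO-P at r = 0.66, and BTZ_CLF minus CON in MINO-VR correlated with it at r = 0.82. The median BTZ minus CON difference of the mitosis list was -2.97 in MINO-P and -0.66 in MINO-VR.

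**Figure D4:**
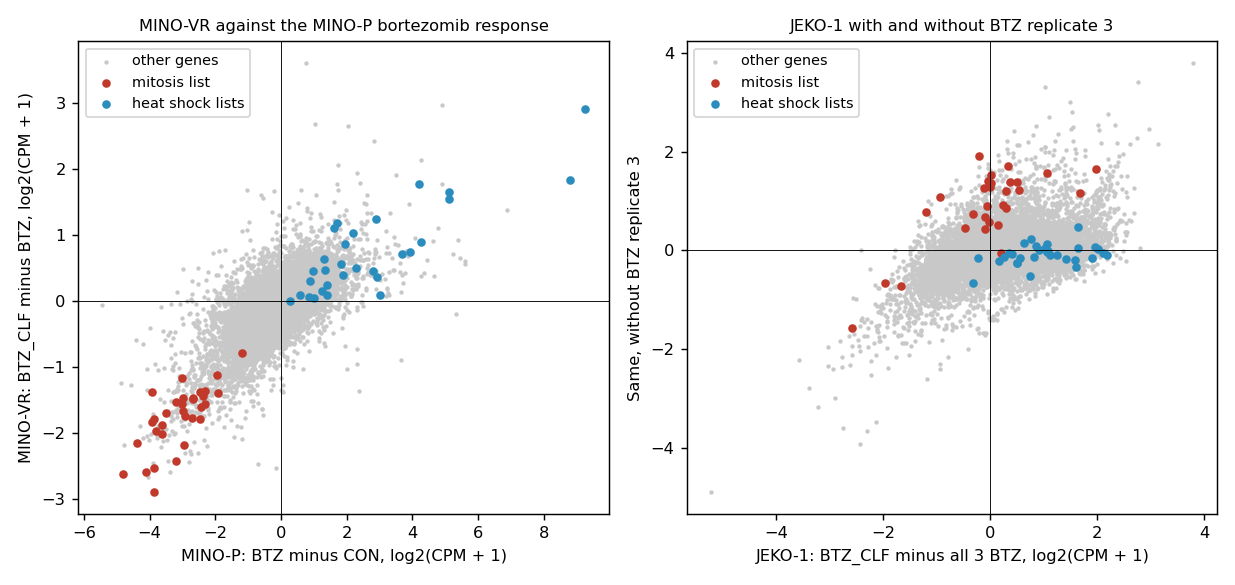
Left, each gene's BTZ_CLF minus BTZ difference in MINO-VR (y axis) against BTZ minus CON in MINO-P (x axis), for genes at 10 CPM or more in MINO-VR that passed the filter of the 9-library test. Right, the JEKO-1 difference without BTZ replicate 3 (y axis) against that with it (x axis). Both are in log2(CPM + 1). Mitosis genes lie in the lower left of the left panel, and heat shock genes on the right panel lie near 0 on the y axis and up to about 2 on the x axis.

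In MINO-P, CLF added little to bortezomib. Of 9069 genes at 10 CPM or more, 4 were at least 1 unit higher (0.0441%) and 78 at least 1 unit lower (0.86%). The list medians lay between -0.33 (B-cell transcription factors) and 0.44 (replication-dependent histones, 1 gene measured). Mitosis genes had a median of -0.32, with 14 of 15 below 0 and 0 past 1 unit, against 5103 of all 9069 genes below 0. PLK1 was at 7.89 CPM with BTZ and 4.59 CPM with BTZ_CLF. The HSP70 and HSP110 median was 0.12 and that of HSP40, BAG and small heat shock was 0.14. HSPA6 was at 653 and 870 CPM, and HSPA1B at 5909 and 7435 CPM. With bortezomib alone these transcripts were already near the level of the combination in MINO-VR. In the group means fit, limma called 0 of 17203 genes (0%) and 28 had an unadjusted p under 0.05.

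The 5 largest differences in MINO-P were downward, 3 in long non-coding RNAs and 2 in protein-coding genes. MALAT1, a nuclear RNA of splicing speckles, was at 563 CPM with BTZ and 68.8 CPM with BTZ_CLF (difference -3.02). NEAT1, the scaffold of nuclear paraspeckles, was at 176 and 33.1 CPM (-2.38), and MIAT, another nuclear RNA, at 56.5 and 8.77 CPM (-2.56). PGGHG, at 82.7 and 12.1 CPM, had a difference of -2.67. GOLGA8B, a golgin with near-identical copies between which reads can be split, had one of -2.54. In MINO-VR the differences of the 5 genes were smaller, with MALAT1 at 353 and 251 CPM, NEAT1 at 175 and 209 CPM, MIAT at 37.3 and 19.6 CPM (-0.90), PGGHG at 73.2 and 85.0 CPM and GOLGA8B at 28.4 and 20.6 CPM (-0.44). GOLGA8B was also lower in JEKO-1, without overlap between groups (-0.85), and MIAT was lower there without overlap only when BTZ replicate 3 was left out (-0.78). In JEKO-1 NEAT1 was at 202, 249.5 and 44.3 CPM with BTZ and 170 and 211 CPM with BTZ_CLF, and the groups overlapped. Of 132 lncRNAs at 10 CPM or more in MINO-P, 12 were at least 1 unit lower and 0 were higher. Transcript length moved with the difference in MINO-P and, with BTZ replicate 3, in JEKO-1. Protein-coding genes in the longest quartile of transcripts (5365 bases or more) had a median of -0.16 and those in the shortest quartile (2275 bases or less) 0.14 (Spearman -0.43 across genes). In MINO-VR these medians were -0.12 and 0.05, and in JEKO-1 -0.29 and 0.48, or -0.04 and -0.02 without BTZ replicate 3. The part of length in these results was not tested. The upward genes were SYNC (1.74), LSM6 (1.35), MALSU1 (1.06), DUSP4 (1.0) and PFDN6 (0.96). LSM6, a subunit of the LSM ring that binds RNA, was at 4.13 and 12.1 CPM.

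In JEKO-1, most of what separated the groups depended on BTZ replicate 3. Of 9797 genes at 10 CPM or more, 457 were at least 1 unit higher with BTZ_CLF with no overlap between groups (4.66%) and 278 were lower (2.84%). Without replicate 3, 244 of 9621 genes were higher (2.54%) and 227 lower (2.36%). Of the 457, 99 (21.7%) were among the 244, and of the 278, 87 (31.3%) were among the 227. A fit of JEKO-1 alone by limma called 0 genes, with 187 at an unadjusted p under 0.05.

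Heat shock genes show this dependence. HSPA6 was at 5385, 5424 and 87.2 CPM in the BTZ libraries and at 5113 and 5973 CPM in the BTZ_CLF libraries. Replicate 3 alone was low, and the other 4 libraries overlapped. BAG3 was at 1230, 1189 and 9.74 CPM with BTZ and 1158 and 1121 CPM with BTZ_CLF. The list medians of HSP70 and HSP110 and of HSP40, BAG and small heat shock were 0.97 and 1.06 with replicate 3 and -0.03 and -0.09 without it. Untreated JEKO-1 held 4.85 CPM of HSPA6 and 35.5 CPM of BAG3, so BAG3 in replicate 3 was below the untreated level. In replicate 3 the stress factor JUN was at 0.07 CPM, against 314 and 329 CPM in the other BTZ libraries.

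Some mitosis genes were higher with BTZ_CLF in JEKO-1, and the list as a whole was so only without replicate 3. PLK1 was at 8.57, 12.8 and 4.87 CPM with BTZ and at 37.1 and 32.9 CPM with BTZ_CLF, after 126 CPM untreated. Both BTZ_CLF libraries lay above the 3 BTZ libraries, with a difference of 1.97. CDC20 was at 7.71, 8.36 and 2.07 CPM with BTZ and 16 and 23.0 CPM with BTZ_CLF, again without overlap. With all 5 libraries the mitosis median was -0.01 and 2 of 29 genes were at least 1 unit higher without overlap, a share near the 4.66% of all genes. Without replicate 3 the median was 1.18 and 13 of 26 were, against 2.54% of all genes. Other members were lower in both cases with overlapping groups, among them ECT2 (-1.57 without replicate 3), KIF20A (-0.74) and DLGAP5 (-0.67). On the deposited scale, which keeps chromosome M, the mitosis median was -0.82 with replicate 3 and 0.75 without it. S phase genes had medians of 0.57 and 0.96 with and without replicate 3, with 7 of 36 and 18 of 36 genes higher in the same sense. On the deposited scale the S phase medians were -0.23 and 0.63. MCM2 was at 48.9, 38.7 and 40.3 CPM with BTZ and 140 and 121 CPM with BTZ_CLF. MYBL2 was at 48.4, 54.6 and 295.5 CPM with BTZ and 204 and 219 CPM with BTZ_CLF. It was the 1 gene that limma called in JEKO-1 without replicate 3 (difference 2.02, adjusted p = 0.0136). In MINO-VR PLK1, CDC20, MCM2 and MYBL2 were lower, and the combination in both lines left them below untreated cells, in which MYBL2 was at 1065 CPM (JEKO-1) and 256 CPM (MINO-VR).

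The single genes that separated most in JEKO-1 included genes of few reads and genes of moderate level. Upward these were LRRC24 (3.79 with and without replicate 3), SMG1P1 (2.96 and 2.45), BLVRA (2.74 and 2.27), CYC1 (2.69 and 0.76) and MAGED4 (2.62 and 2.14). LRRC24 was at 0 CPM in the 3 BTZ libraries and at 11.8 and 14.1 CPM with BTZ_CLF. CYC1, cytochrome c1 of the respiratory chain, was at 54.0, 55.1 and 0 CPM with BTZ and 84.4 and 102 CPM with BTZ_CLF. SMG1P1 and MAGED4 have near-identical copies. Downward these were BLOC1S5-TXNDC5 (-5.21 with and -4.89 without replicate 3), LINC01963 (-3.57 and -2.22), ZNF850 (-3.39 and -2.79), SREBF2-AS1 (-3.21 and -3.17) and CD38 (-3.04 and -1.95). BLOC1S5-TXNDC5 is a readthrough of neighbouring genes that shares their reads, and SREBF2-AS1 an antisense RNA whose reads cannot be told from those of the opposite strand. LINC01963 was at 14.1, 4.46 and 151.5 CPM with BTZ and 0 and 2.82 CPM with BTZ_CLF. CD38, a surface enzyme of activated B cells, was at 6.43, 6.68 and 71.3 CPM with BTZ and 0 and 2.82 CPM with BTZ_CLF, the latter at or near the 3-read level.

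Genes with one direction in all 3 lines were sought at an unadjusted p under 0.05, with a mean of at least 5 CPM and no overlap in JEKO-1. The rule was met by 6 genes upward and 31 downward, none of which passed the adjusted test, and the 6 and the 12 largest downward are described. Over all 14532 genes, 333 (2.29%) were higher and 433 (2.98%) lower in all 3 lines with no overlap in JEKO-1. FNIP2, which binds the energy and nutrient sensor partner folliculin, was at 11.3 and 19.9 CPM with BTZ and BTZ_CLF in MINO-P and at 15.2 and 48.2 CPM in MINO-VR. In JEKO-1 it was at 27.9, 29.5 and 15.9 CPM with BTZ and 48.0 and 36.6 CPM with BTZ_CLF. Both groups of JEKO-1 were separate, and the fitted difference was 0.98 ± 0.34 (SE, limma adjusted p = 0.95). FNIP2 was also higher with CLF alone in MINO-VR (35.5 CPM against 12.6 CPM untreated). ITGAV, the integrin alpha V chain, was at 0.75 and 3.06 CPM in MINO-P, 1.84 and 6.26 CPM in MINO-VR, and 30.0, 42.9 and 14.4 against 46.6 and 63.0 CPM in JEKO-1. Of the other 4 genes upward, PSMB9, an immunoproteasome subunit, rested on JEKO-1 (3.43, 5.57 and 2.51 against 24.0 and 22.6 CPM), since it differed by 0.00 and 0.03 in MINO-P and MINO-VR. PSEN2, SLC16A13 and NRBF2 were likewise largest in JEKO-1.

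Of these 12 genes downward, CNTRL had the highest level. CNTRL, the centrosome protein centriolin, was at 53.2 and 28.1 CPM in MINO-P, 87.5 and 56.3 CPM in MINO-VR, and 55.3, 35.1 and 181 against 12.4 and 24.0 CPM in JEKO-1. MARCHF1, a ubiquitin ligase that turns over MHC class II, was 0.99, 1.16 and 1.8 lower in MINO-P, in MINO-VR and in JEKO-1. NPIPB13 was 1.88, 1.27 and 1.5 lower but belongs to a family of near-identical copies. The remaining 9 were BLOC1S5-TXNDC5, ZNF850, LINC00865, SDHAF3, ABCC4, COX10-DT, ADAT2, SLFN12 and MEX3A. The differences of all 9 were largest in JEKO-1, but without BTZ replicate 3 that of MEX3A was larger in MINO-VR (-1.27) than in JEKO-1 (-1.17). FCMR, the Fc receptor for IgM of B cells, met the rule but was not among the 12 largest. It was lower in each line (96.0 and 66.4 CPM in MINO-P, 112 and 53.7 CPM in MINO-VR, and 53.6, 52.1 and 73.1 against 30.6 and 30.1 CPM in JEKO-1), with a fitted difference of -0.87 and a p of 0.00753 before limma's adjustment (adjusted p = 0.95), below that of the 18 genes described. FCMR was picked once its values were known.

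**Figure D5:**
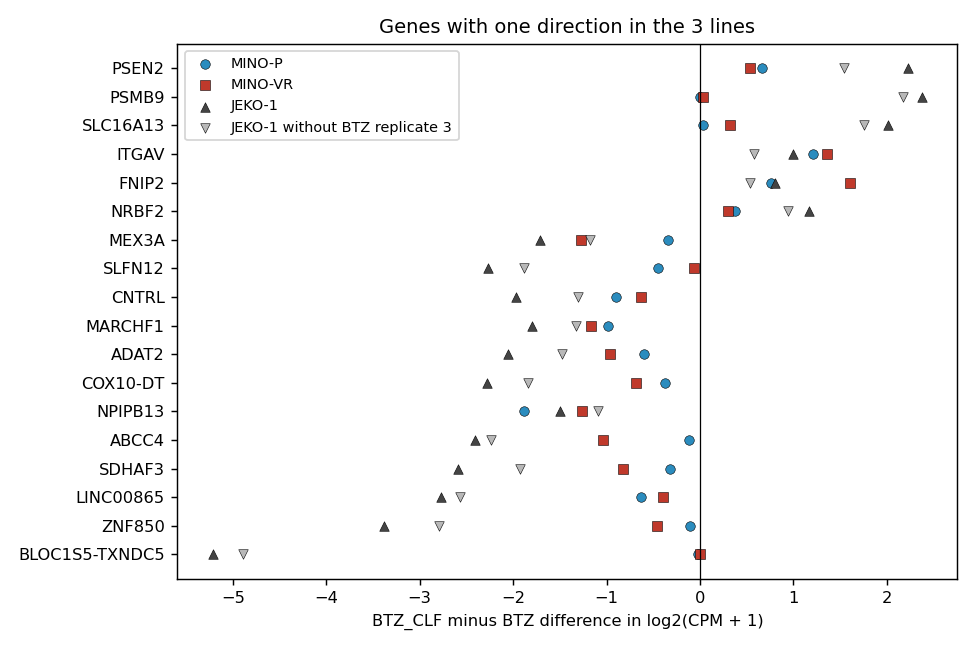
BTZ_CLF minus BTZ difference (x axis, log2(CPM + 1)) of the 18 described genes (y axis) with one direction in the 3 lines, 1 symbol per line. FNIP2 and ITGAV differ in all 3 lines, while BLOC1S5-TXNDC5 and PSMB9 sit at 0 in MINO-P and MINO-VR and apart from it in JEKO-1.

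CLF without bortezomib gives the scale for these differences. In the 16 libraries of CON, CLF, BTZ and BTZ_CLF, limma called 0 of 15207 genes for CLF alone, with 38 at an unadjusted p under 0.05. The change of the CLF difference in the presence of bortezomib was called for 0 of 15207 genes (0%), with 82 at an unadjusted p under 0.05. The mitosis list had a median CLF minus CON difference of -0.79 in MINO-VR, -0.78 in MINO-P and -0.13 in JEKO-1. Its BTZ_CLF minus BTZ medians over the same genes were -1.68, -0.32 and -0.01. Without BTZ replicate 3 the JEKO-1 median was 1.18, over 26 genes instead of 29. Across genes the CLF difference with bortezomib correlated with that without it at r = 0.34 in MINO-VR and 0.19 in MINO-P. In JEKO-1 it was 0.02, or -0.03 without BTZ replicate 3. S phase genes were not lower with CLF alone in MINO-VR (median 0.09), where MCM2 was at 114 CPM untreated and 126 CPM with CLF. The sterol and fatty acid synthesis list was higher with CLF alone (medians 0.53 in MINO-VR, 0.33 in MINO-P and 0.24 in JEKO-1). Beside bortezomib the list medians were -0.11, 0.12 and 0.40 (-0.06 without replicate 3). In MINO-P and MINO-VR the values of CLF alone set 1 library against 1 untreated library. In MINO-P the names of those libraries end in different codes.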

How the data were processed

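The authors deposited log2(CPM + 1) values per gene, which the submitters' processing notes link to Partek and hg38; the aligner, the counting and the use of strand are not given in the sources used here. Per the labels' protocols, RNA was isolated on columns and libraries were made after poly-A enrichment. The log2 was undone, rows of chromosome M were dropped and each library was rescaled to the same total. Of the low values, 76.1 to 89.1% in the 16 libraries came out as whole reads within 0.05 of a read, so no count model was used.

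limma 3.58.1 with an intensity trend was run on log2(CPM + 1), a pseudocount of 1, for genes with at least 1 CPM in at least 2 libraries, with Benjamini-Hochberg adjustment at 0.05 and cell line as a block. The fit was also run on simulated counts with independent libraries and no outlying library. That run cannot show how the fit does with BTZ replicate 3 or with pairs that may be technical. Within a line, genes at 10 CPM or more in the mean of 1 group were described, and a difference of 1 log2 unit was counted. Named genes were those called with one direction in the 3 lines, else up to 12 a direction with a p under 0.05 before adjustment, 5 CPM or more on average and no overlap in JEKO-1; the 5 largest differences a line and direction; and the largest of each of 30 gene lists. Members and lists were chosen with earlier results of these data known. Coordinates of promoters are RefSeq's; transcript lengths are from GENCODE 29, for over 99% of protein-coding genes. Intervals and floors cover counting error only.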

Additional observations from a re-analysis of the deposited data

Results flagged for a closer look

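The 131 named genes were searched for opposite directions, at 10 CPM or more in both lines and at least 1 log2 unit in each. In 5 of them, every JEKO-1 BTZ_CLF library lay above every JEKO-1 BTZ library, with or without BTZ replicate 3. In MINO-VR the BTZ_CLF library lay at least 1 log2 unit below its BTZ library. Over all genes, 4.66% were at least 1 unit higher without overlap in JEKO-1, and 4.58% at least 1 unit lower in MINO-VR. The share of all genes that meet both was not computed, so the count of 5 has no background. PLK1, LIG1 and BOP1 were named by the size of their differences in these same libraries. CDC20 and MCM2 were named once their values were known. The gap between the JEKO-1 and MINO-VR differences was 4.86 log2 units for PLK1, 4.22 for CDC20, 3.47 for BOP1, 3.29 for LIG1 and 3.14 for MCM2. Without BTZ replicate 3 it was 4.54, 3.70, 1.48, 2.53 and 3.1 in the same order. BOP1 was at 57.0, 67.4 and 0 CPM with BTZ and 85.9 and 71.4 CPM with BTZ_CLF in JEKO-1, and its difference there was 0.33 without replicate 3. BBOX1 and MCM3 had the same opposite directions but in JEKO-1 BBOX1 was below 10 CPM and MCM3 differed by less than 1 unit. PLK1 and CDC20 act in mitosis, LIG1 and MCM2 in DNA replication and BOP1 in ribosome assembly. The opposite directions in these 2 lines were not tested gene by gene. The fit of JEKO-1 against both MINO lines called 0 genes, and in it cell line cannot be told apart from library series.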

How the results depend on the processing

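For the 3 lines together, array weights called 1 gene (MIAT, lower) and a model over all 56 libraries 12, where 0 were called otherwise, JEKO-1 alone without BTZ replicate 3 called 1, and the other settings, each library left out in turn included, called 0. JEKO-1 against MINO, CLF with against without bortezomib and CLF alone stayed at 0 under every setting run. In the group means fits, dropping the filter on low values gave 49 calls in MINO-P, 52 in MINO-VR and 47 for their difference. A pseudocount of 0.25 gave 1 call in MINO-P and 1 in MINO-VR, and a pseudocount of 5 gave 3 for their difference. Without averaging near-identical pairs, 1 gene was called in MINO-P and 1 for the difference, which also had 1 call without JEKO-1 BTZ replicate 3. With a pseudocount of 5, genes past 1 log2 unit numbered 1 higher and 43 lower in MINO-P and 56 higher in MINO-VR; the MINO-VR counts of mitosis, S phase and heat shock genes stayed within 1.5 times. Leaving out 1 JEKO-1 library gave 244 to 1129 genes higher and 227 to 801 lower without overlap, 2 to 13 mitosis genes higher and 6 to 18 S phase genes higher. The group means fits, the counts within lines, the fit of JEKO-1 alone without BTZ replicate 3, and leaving out libraries other than it for JEKO-1 against MINO and for CLF with against without bortezomib were chosen after seeing the data.

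The deposited scale moved the JEKO-1 median of all genes from 0.11 to -0.64. Signs of list medians were compared among the main scale, the deposited scale and a rescaling by the median ratio between libraries. The sign differed for 20 of 30 lists in JEKO-1, 2 in MINO-P and 3 in MINO-VR. Those of MINO-VR lay near 0 and turned with the rescaling by median ratio, not with the deposited scale. In MINO-P the interferon-stimulated median turned with both, and the immediate early median with the median ratio only. The cause of these changes was not tested. The labels give no replicate numbers, but JEKO-1 library names share a suffix, and with that suffix as an added block 0 genes were called for the 3 lines together, with 93 at an unadjusted p under 0.05. With 1.37 to 2.33 M reads outside chromosome M in 4 JEKO-1 libraries, differences of low genes were not detectable there at this depth. In MINO the limit was 1 library a group, which leaves any difference without a replicate check.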
